A study of Caenorhabditis elegans with 2 samples.

Results

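The regions described here lie at one-direction protein-coding promoters in a chromatin immunoprecipitation sequencing (ChIP-seq) map of the transcription factor TBX-8 in Caenorhabditis elegans embryos. A region of the pooled list was a member when its summit lay between 1000 bp upstream and 200 bp downstream of annotated starts of protein-coding transcripts on a single strand, and more than 200 bp from any tRNA, snRNA, snoRNA or rRNA gene. This rule used position alone and no measured value. It gave 4463 members of 16355 pooled regions (27.3%), and their nearest starts belonged to 3684 of 19973 protein-coding genes (18.4%). The samples were 2 biological replicates of whole mixed-stage embryos of both sexes, aged 2.5 hours and obtained by egg bleaching, from strain RW10470. That strain carries the insertion st10470, in which tbx-8 is joined to the tags TY1, EGFP and 3xFLAG, with unc-119(+) as its marker, in an unc-119(ed3) background, so both replicates express the tagged protein from an added transgene in 1 line. The immunoprecipitation used an antibody against GFP, although the antibody field of the labels reads tbx-8, and chromatin was sonicated. Both replicates form 1 group, so no comparison of conditions or test across samples exists, and every result below is a description with counting intervals.

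T-box factors bind DNA through a conserved domain that recognises sites built around the core GGTGTG, and TBX-8 shares a role in shaping the worm embryo with its close relative TBX-9. A promoter that serves genes in one direction differs from a divergent promoter, where neighbouring genes on opposite strands point away from a shared stretch of DNA. In C. elegans many messenger RNAs receive a spliced leader, so an annotated start is often the trans-splice site and not the place where transcription begins, which lies further upstream.

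The sequences at the summits of the highest members are shown first, because these are the top members of the 6 genes with the highest signal. Each is the summit with 50 bases on either side, read 5′ to 3′ on the strand of the nearest gene from the RefSeq genome of WBcel235 (ce11), with capitals marking the GAGA word GAGAGA or its reverse complement and any overlapping copies.
M01F1.9, chrIII:3499985-3500085, minus strand: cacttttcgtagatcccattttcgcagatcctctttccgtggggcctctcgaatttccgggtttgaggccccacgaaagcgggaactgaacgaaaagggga
K12H4.5, chrIII:8043906-8044006, plus strand: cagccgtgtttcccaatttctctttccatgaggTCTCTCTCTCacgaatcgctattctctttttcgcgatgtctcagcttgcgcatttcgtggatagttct
ftt-2, chrX:11605876-11605976, minus strand: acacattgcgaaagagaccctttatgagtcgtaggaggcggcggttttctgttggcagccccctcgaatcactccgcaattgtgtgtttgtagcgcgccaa
T13C5.6, chrX:6207806-6207906, minus strand: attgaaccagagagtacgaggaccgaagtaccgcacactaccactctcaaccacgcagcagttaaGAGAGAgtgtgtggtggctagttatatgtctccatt
rpl-3, chrIII:3867557-3867657, plus strand: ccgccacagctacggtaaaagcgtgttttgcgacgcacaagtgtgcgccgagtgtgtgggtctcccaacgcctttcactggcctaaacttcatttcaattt
W01D2.3, chrII:14804560-14804660, minus strand: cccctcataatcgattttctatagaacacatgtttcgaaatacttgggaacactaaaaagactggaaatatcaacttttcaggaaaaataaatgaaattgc

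None of these 6 stretches holds the T-box core on either strand. Among all members in the authors' thresholded list the core was present in 20, and sites of 10 of them are shown because they bear on the motif of the tagged factor: the 6 of highest signal, then 4 in which the core is followed by A. Each line gives the core in capitals with 12 bases on either side, on the strand that reads GGTGTG.
W01D2.3, chrII:14804708-14804737, minus strand: ttcttgaggaatGGTGTGttggtagaggct
sto-4, chrX:11644115-11644144, minus strand: agaaggacagaaGGTGTGgtgtgtgtgtgt
swsn-3, chrIII:2768796-2768825, plus strand: ttgctcattgtaGGTGTGgttttgtttggc
npp-8, chrIV:1595998-1596027, minus strand: agtacacgatgaGGTGTGcgggggacttgc
F09C8.2, chrX:16147847-16147876, plus strand: gaacgagcggatGGTGTGggaagatggggg
Y39E4B.6, chrIII:13070761-13070790, plus strand: tagtttgcaatcGGTGTGtcgcacgacggc
Y39G8B.2, chrII:13976323-13976352, plus strand: caaatgtcgtcgGGTGTGatgtttgcggac
F16B12.6, chrX:14102150-14102179, plus strand: gatagggagaggGGTGTGaatgcgcgcgaa
F40G9.14, chrIII:178439-178468, plus strand: tggtgagcctttGGTGTGaggtgggattta
tlp-1, chrIV:13704218-13704247, plus strand: agatgaggagtaGGTGTGaacgttacacat

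The A after the core in the last 4 of these sites extends the match to the T-box consensus. The tlp-1 site is also preceded by A and so holds the full word AGGTGTGA, as does the smp-2 site that is not printed.

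The pooled list was called by the authors on the reads of both replicates together, and each region carries the authors' signal value. No label or file header defines it, and it is taken as a score of strength in arbitrary units that can be compared only within a list. The thresholded list, left by the authors after scoring how far the replicates agree, holds 521 regions, and they are the 521 pooled regions of highest signal. Members in that list are called thresholded members below, and the others remaining members. Because the list is a rank threshold, the grade of a member by signal and its place in the list are a single measure. Nearly all members, 4457 of 4463, are 460 bp wide with the summit at the centre. The other 6 are narrower, between 146 and 342 bp, and are the 6 members of highest signal.

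Regions at one-direction promoters reached the thresholded list about as often as pooled regions did in general. Of the 4463 members, 140 were in it (3.14%, 95% Wilson interval 2.66 to 3.69), beside 3.19 percent of all pooled regions. The share was 3.20% in the 11892 other pooled regions, a difference of -0.07 percentage points (Newcombe interval -0.64 to 0.56). All intervals on regions cover counting error only. At the authors' q-value below 0.05 there were 255 members (5.71%), beside 5.39 percent of all pooled regions.

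That similarity hides large differences between kinds of region. Regions near small RNA genes reached the thresholded list far more often, 195 of 509 (38.3%). Without those, 186 of 11383 other regions reached it (1.63%), and the members' share of 3.14% was then higher by 1.50 points (interval 0.97 to 2.10). Members stood above the 10638 regions away from promoters and small RNA genes, of which 1.13% were thresholded, by 2.01 points (interval 1.49 to 2.59). They stood below the 745 regions at divergent promoters, of which 66 (8.86%, interval 7.02 to 11.1) were thresholded, by 5.72 points (difference -5.72, interval -8.03 to -3.81). The median signal ordered the same way, with 35.2 for members, 39.3 at divergent promoters and 33.9 away from promoters. A divergent promoter can be reached from starts on both strands, and the length of DNA in each class was not equalised.

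With small RNA regions left aside, members made up 42.9% of the regions at ranks 1 to 521 (interval 37.7 to 48.4). They made up 36.3% of ranks 522 to 1042 and 34.6% of ranks 1043 to 2084. The share was 28.5% at ranks 2085 to 4168 and again at ranks 4169 to 8336, and 26.0% at ranks 8337 to 16355. Divergent promoters thinned out more steeply, at 20.2% of the first of these rank ranges and 3.06% of the last. With small RNA regions left aside, members therefore grew scarcer down the list. With those regions kept there was no steady fall, at 26.9% of ranks 1 to 521, 33.0% of ranks 1043 to 2084 and 25.7% of ranks 8337 to 16355. Of the 521 lowest regions of the whole list 135 (25.9%) were members.

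**Figure D1:**
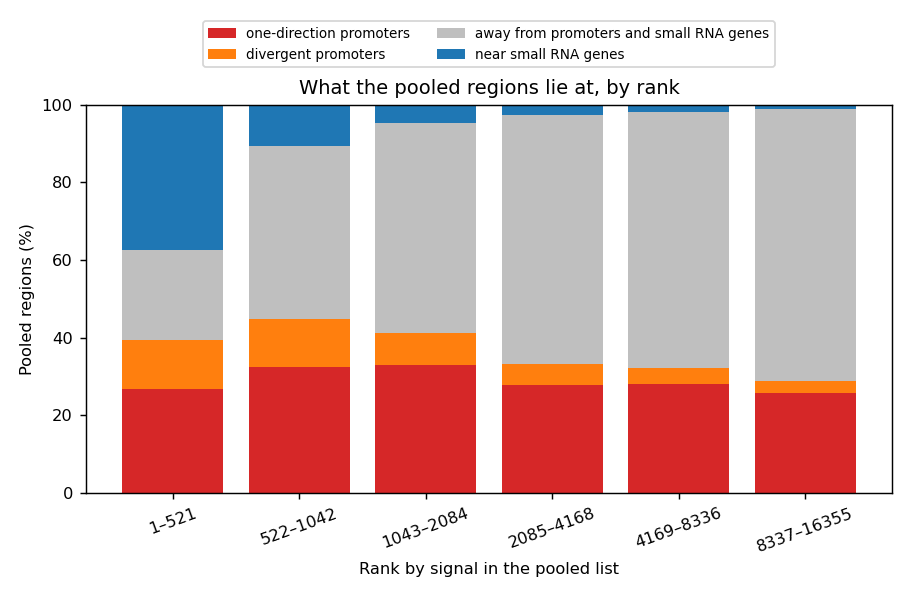
Share of pooled regions (%, vertical axis) at one-direction promoters, at divergent promoters, away from promoters and small RNA genes, and near small RNA genes, in 6 ranges of rank by signal (horizontal axis). One-direction promoters hold 26.9% of ranks 1 to 521, where small RNA genes hold 37.4%, and 25.7% of ranks 8337 to 16355.

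The highest members lay at genes of varied roles. The highest of all was upstream of M01F1.9 on chrIII:3499914-3500167, with a pooled signal of 496 and signals of 248 in replicate 1 and 243 in replicate 2, where it ranked 3 and 2. Its summit lay 978 bp upstream of the M01F1.9 start, inside an intron of another gene. The member at K12H4.5 on chrIII:8043821-8044117 followed, with a pooled signal of 424 and replicate signals of 228 and 196, its summit 531 bp upstream in intergenic DNA. The median pooled signal of the thresholded members was 93.8, so both lay well above it.

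The gene ftt-2, which encodes a 14-3-3 adaptor protein, held a pair of thresholded members. The first, 507 bp upstream on chrX:11605758-11606099, had a pooled signal of 414 and replicate signals of 214 and 200. The second, 707 bp upstream, had a pooled signal of 233 and replicate signals of 118.7 and 77.6. The regions overlap, with summits 200 bp apart. The first summit fell inside an annotated noncoding RNA gene and the second within 200 bp of one, so the signal there cannot be given to ftt-2 alone. At T13C5.6 the summit also lay in a noncoding RNA gene, 169 bp upstream of the start, with a pooled signal of 258 and replicate signals of 125 and 131.

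The member at rpl-3, which encodes a protein of the large ribosomal subunit, was intergenic and 247 bp upstream of the start, with a pooled signal of 250 and replicate signals of 133 and 116. W01D2.3 held overlapping members 301 and 501 bp upstream with pooled signals of 214 and 163. The first had replicate signals of 108 and 107. In all, 7 members had a pooled signal over 200, 15 over 150 and 58 over 100, so most of the thresholded members lay within a narrow band above its lower edge of 76.0.

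The next members by signal included genes of chromatin, protein folding and nuclear structure. The one at cbp-1, the worm homologue of the acetyltransferases CBP and p300, had a pooled signal of 171 and replicate signals of 100 and 70.3. The large-subunit gene rpl-35 followed with a pooled signal of 169 and replicate signals of 83.1 and 84.5. The one at hsp-1, which encodes a constitutive Hsp70 chaperone, had a pooled signal of 158 and replicate signals of 83.7 and 74.1. The hsp-1 summit lay within 200 bp of an annotated noncoding RNA gene. At swsn-3, which encodes a component of the SWI/SNF chromatin remodeller, the pooled signal was 144, and at npp-8, which encodes a nuclear pore protein, it was 139. cox-5B, a subunit of cytochrome c oxidase, had 136, and it was the only one of the 25 highest members with its summit downstream of the start, by 27 bp in the 5′ untranslated region. The others of the 25 were R148.3, K05C4.2, sto-4, dhs-8, C46F11.4, Y17D7C.2, F09C8.2, Y39E4B.6, Y54G11A.2, eel-1 and phf-15, with pooled signals between 130 and 166.

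The replicates did not always share this order. At sto-4, a stomatin gene with a pooled signal of 157, replicate 1 gave 39.1 at rank 756 and replicate 2 gave 74.0 at rank 93. It was the only one of the 25 highest members outside the 521 highest regions of a replicate. Bases that recur within the members' own windows as words of 36 bases covered 52.4% of the sto-4 window and 78.3% of the eel-1 window, and the part of such repeats in the signal was not tested.

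**Figure D2:**
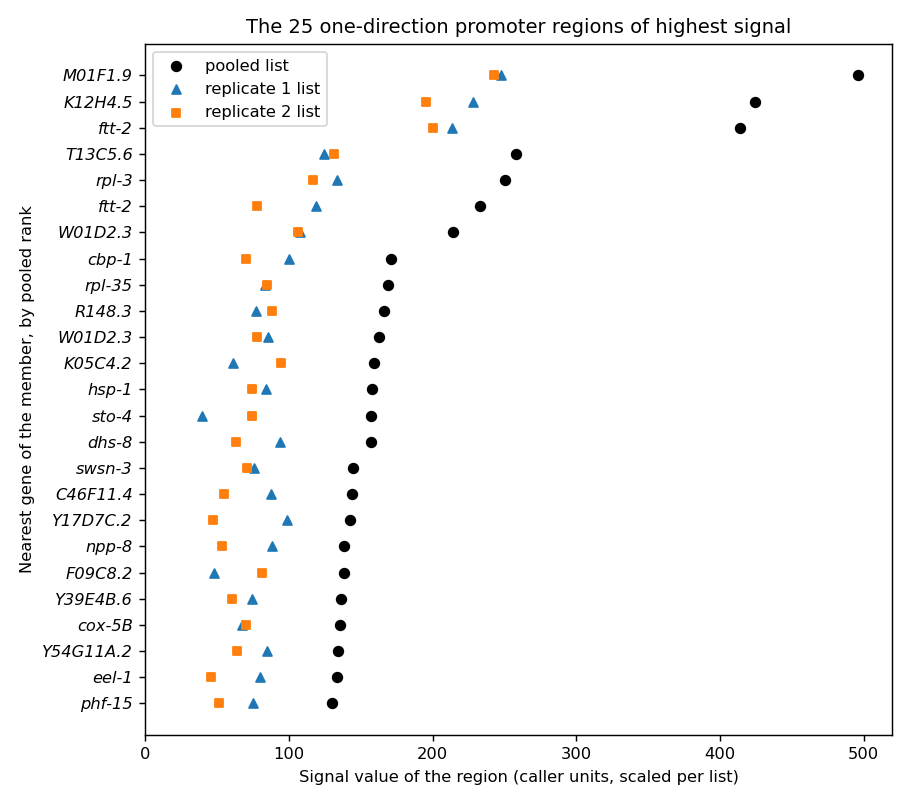
Signal of the 25 members of highest pooled signal (vertical axis, nearest gene, in order of pooled rank) in the pooled list (circles), replicate 1 (triangles) and replicate 2 (squares), in the caller's units (horizontal axis), which are not scaled between lists. M01F1.9, K12H4.5 and the first ftt-2 member lie apart from the others in all 3 lists, with pooled signals of 496, 424 and 414.

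Just inside the threshold lay the members at sqv-8, ife-2 and T22F3.2, with pooled signals of 76.1, 76.1 and 76.0. Just outside lay those at hrpf-1, C54C6.11 and hrpu-2, with 75.7, 75.5 and 75.4. The edge therefore separates members whose values are nearly equal.

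Most thresholded members were present in both replicate lists, and fewer were high in both. A summit within 100 bp was found in the list of replicate 1 for 137 of the 140, in that of replicate 2 for 136, and in both for 133. Among the 521 highest regions of each replicate, 98 were found in replicate 1, 98 in replicate 2, 68 in both (48.6%, Wilson interval 40.4 to 56.8) and 12 in neither. Over members of every grade the share in both was 1.52%, beside 1.8 percent of all pooled regions. The authors chose the list on the agreement of these replicates, so these counts are no independent sign of agreement.

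The share high in both replicates differed by kind of thresholded region. It was 143 of 195 near small RNA genes (73.3%, interval 66.7 to 79.0), and the members' 48.6% was lower by 24.8 points (difference -24.8, interval -34.7 to -14.2). It was 37 of 66 at divergent promoters (56.1%, interval 44.1 to 67.4) and 47 of 120 away from promoters and small RNA genes (39.2%, interval 30.9 to 48.1). The members' share lay between these last values, and the intervals of both differences included 0 (-21.4 to 7.03 points against divergent promoters and -2.68 to 21.1 points against regions away from promoters). Against all 381 other thresholded regions, of which 227 were high in both (59.6%), the difference was -11.0 points (interval -20.5 to -1.40), and with small RNA regions left out 84 of 186 were (45.2%) and the interval of the difference was -7.43 to 14.2.

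Signal differs as well between these kinds, with a median of 93.8 for thresholded members, 102 at divergent promoters and 118 near small RNA genes. Within the members the share followed signal, at 24 of the 25 highest. Log2 signals of the replicates correlated across the 133 thresholded members found in both lists with a Pearson's r of 0.60 and a Spearman's rho of 0.37, and across the 1344 remaining members found in both with an r of 0.19 and a rho of 0.18. These are correlations across regions of the same 2 libraries and are given as descriptions.

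Among the 4323 remaining members, 2890 (66.9%) were found in replicate 1, 2423 (56.0%) in replicate 2 and 1344 (31.1%) in both. By rank, members at 1 to 521 were found in both replicates in 95% of cases, those at 522 to 1042 in 78.1%, and those at 8337 to 16355 in 11.2%. The lists are stated to hold background on purpose, and most remaining members were thus recorded in a single replicate or in neither.

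**Figure D3:**
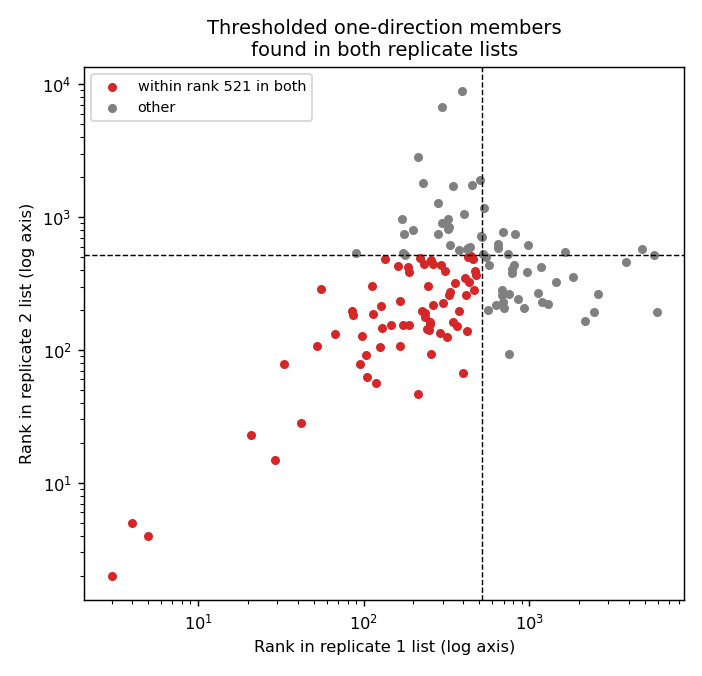
Rank in the replicate 1 list (horizontal, log axis) against rank in the replicate 2 list (vertical, log axis) for the 133 thresholded members found in both, with dashed lines at rank 521. The 68 members within both lines are red, and the others reach ranks of 5933 in replicate 1 and 8894 in replicate 2.

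Thresholded members lay upstream of the annotated start. The summit was upstream in 135 of 140 (96.4%, Wilson interval 91.9 to 98.5), against 81.0% of remaining members (interval 79.8 to 82.2). The window of the rule alone would give 83.3%. On the list of replicate 1 alone, without replicate 2, 89.1% of the members among the 521 highest regions were upstream (interval 83.1 to 93.2), an interval that includes that value. Without replicate 1 the share was 97.2%. The median distance was -286 bp for thresholded members and -294 bp for remaining members, so the medians were alike. The spread differed: 43.6% of thresholded members (interval 35.6 to 51.8) lay 400 to 100 bp upstream, against 28.3% of remaining members (interval 27.0 to 29.7).

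The share of members that were thresholded was highest 200 to 100 bp upstream, at 27 of 476 (5.67%, interval 3.93 to 8.13), and 4.84% in the next 100 bp upstream. It was 0.939% (4 of 426) within 100 bp downstream of the start and 0.25% (1 of 400) in the 100 bp after that. Members as such were not scarce there, since 826 of them (18.5%) lay at or downstream of the start. The 5 thresholded ones were at cox-5B, at egl-30, which encodes a G-protein alpha subunit and held another 73 bp upstream of a different start, at pqn-51, and a pair at Y43F8B.2. These genes other than cox-5B were singled out after their values were seen.

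**Figure D4:**
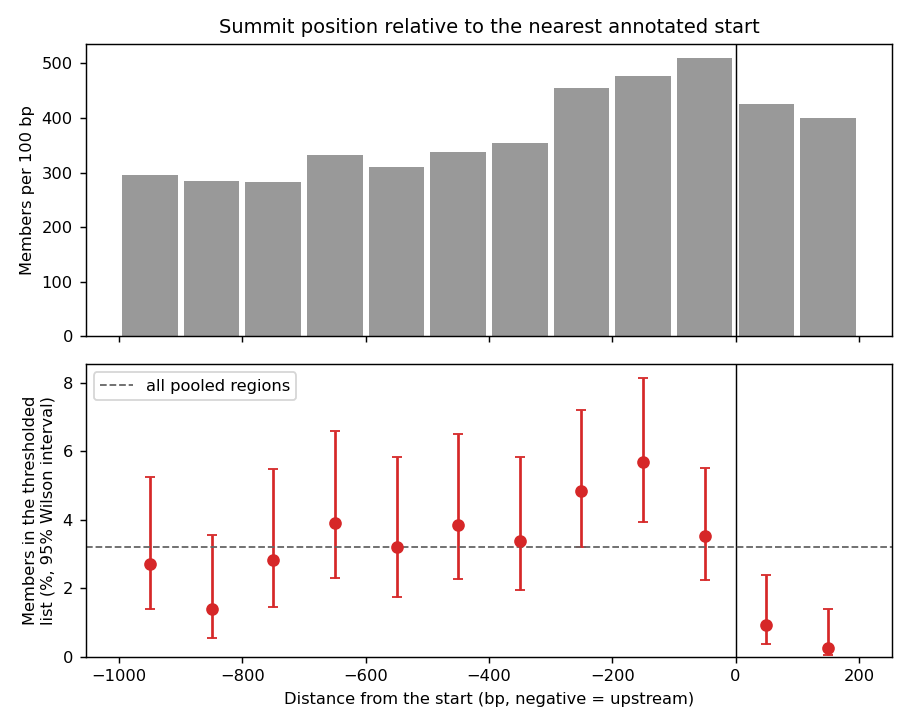
Number of members per 100 bp (upper panel) and share of them in the thresholded list (lower panel, %, bars are 95% Wilson intervals, dashed line all pooled regions) by distance of the summit from the nearest annotated start in bp (horizontal axis, negative is upstream). The share is 5.67% at 200 to 100 bp upstream and 0.25% at 100 to 200 bp downstream.

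Thresholded members were mostly intergenic. The summit was intergenic in 102 of 140 (72.9%), against 44.1% of remaining members, and 5.08% of all 2007 intergenic members were thresholded. Of the 896 members in an intron of the nearest gene itself 16 were thresholded (1.79%), of the 497 in its coding exons 2 (0.402%), and of the 241 in its 5′ untranslated region 4 (1.66%). None of the 157 in a 3′ untranslated region was, and 151 of these belonged to another gene. Down the ranks the share of summits in coding exons grew, with 2.14% at ranks 1 to 521, 7.10% at ranks 522 to 1042 and 19.0% at ranks 8337 to 16355.

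Noncoding RNA genes of the general annotation class ncRNA, which the rule did not exclude, lay within 200 bp of 28 thresholded members (20%, interval 14.2 to 27.4), against 7.17% of remaining members. They lay within 200 bp of 8 of the 25 highest members, against 7.57% of all members. The 8 were both members at ftt-2, both at W01D2.3 and those at T13C5.6, hsp-1, dhs-8 and F09C8.2. Their signal cannot be given to the named genes alone. The median pooled signal was 104 for the thresholded members near such genes and 92.0 for all others. Away from these genes 112 of 4125 members were thresholded (2.72%), against 1.47% of other pooled regions that lay away from these and from small RNA genes. Few members of any grade lay within 200 bp of a tRNA pseudogene of the RefSeq annotation, 0 thresholded and 5 in all (0.112%), with 0.183% of all pooled regions.

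The arrangement of neighbouring genes gave overlapping intervals for the grades. A start on the opposite strand lay within 2000 bp of the summit for 20.7% of thresholded members (interval 14.8 to 28.2), against 15.3% of remaining members (interval 14.2 to 16.4). The upstream neighbour was in the same direction for 54.3% (interval 46.0 to 62.3), against 61.4%. The median gap to it was 1879 bp for thresholded members and 1928 bp for remaining members.

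Base composition differed between the grades. Within 100 bp on either side of the summit the median GC content was 46.0% in thresholded members (quartiles 39.8 and 52.2), against 38.8% in remaining members (quartiles 33.8 and 44.5). The median number of CpG steps was 12 in thresholded members, against 8. Thresholded regions had a median GC of 43.8% at divergent promoters and 47.8% near small RNA genes, so the higher GC was shared. Grouped by GC, 0.808% of the 1362 members up to 35% GC were thresholded, 2.38% of those over 35 and up to 40, 2.76% of those up to 45, 5.56% of those up to 50, and 9.15% of the 481 above. GC content thus moved with the grade, and its part in the signal was not tested.

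The T-box core GGTGTG was present on either strand within 100 bp of the summit in 20 of the 140 thresholded members (14.3%, Wilson interval 9.44 to 21.0), against 6.87% of remaining members (interval 6.15 to 7.66). The difference was 7.42 points (Newcombe interval 2.51 to 14.2). Of all pooled regions, with windows of the same length, 6.89% held it. By rank the share among members was 14.3% at 1 to 521, 13.6% at 522 to 1042, 8.72% at 1043 to 2084 and 5.72% at 8337 to 16355, so the core became rarer down the list.

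Among thresholded regions of other kinds the core was present in 2 of 66 at divergent promoters (3.03%, interval 0.835 to 10.4), which is lower than in the members by 11.3 points (interval of the members' excess 2.44 to 18.4). It was present in 7.69% of those near small RNA genes (members' excess 6.59 points, interval -0.09 to 14.0) and in 10.8% of those away from promoters and small RNA genes (members' excess 3.45 points, interval -4.91 to 11.5). The core thus set thresholded members apart from thresholded divergent promoters beyond counting error, on 2 divergent regions that held it. The intervals against the other kinds included 0. Outside the thresholded list the core was in 43 of 679 regions at divergent promoters (6.33%, interval 4.74 to 8.42), beside 6.87% of remaining members.

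Most thresholded members, 120 of 140, lacked the core, and those that held it were not the highest. Their pooled signal ran between 76.7 and 163 with a median of 92.5, against a median of 94.5 and a highest value of 496 without it. Of the 20, 8 were high in both replicates (40%), against 60 of the 120 without it (50%). The 20 windows held 25 cores, of which 16 lay within 50 bp of the summit, and 11 ran in the direction of the nearest gene and 14 against it. At sto-4 both cores sit beside a run of alternating GT. Of the 20, 10 were on the X chromosome and 6 lay near a general noncoding RNA gene.

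The core followed by A, GGTGTGA, was present in 5 thresholded members (3.57%), against 1.64% of remaining members, with a difference whose interval runs between -0.15 and 6.46 points. The full word AGGTGTGA was present in 2 (1.43%), against 0.578%, with a difference between -0.22 and 4.49 points. For GGTGTGA the interval lay above 0 in 2 of 8 alternatives, at q below 0.05 (0.22 to 5.00 points) and over 200 bp from general noncoding RNA genes (0.39 to 8.54), and included 0 in the other 6. For AGGTGTGA it included 0 in all 8. The 5 members were Y39G8B.2, F16B12.6, F40G9.14, smp-2, a semaphorin gene, and tlp-1, which encodes a zinc finger protein of tail development, with pooled signals of 88.3, 85.8, 84.4, 85.9 and 82.1.

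Because the share of the core was higher at higher GC in the remaining members too, the grades were also set side by side within classes of GC. Between 35 and 40% GC the core was in 16% of thresholded members, against 6.25% of remaining members. Between 40 and 45% it was in 3.70%, against 8.74%, and between 45 and 50% in 24.2%, against 9.98%. Above 50% it was in 15.9%, against 13.7%. The thresholded members were thus higher in 3 of these 4 classes, on counts of 4, 8 and 7 with the core. They were lower between 40 and 45% GC, on a count of 1, and each of the 4 classes had 25 to 44 thresholded members. Up to 35% GC they were also lower, at 0 of 11, against 2.52% of remaining members. The core therefore did not keep one direction across all classes of GC.

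Other words also differed in frequency between the grades. The GAGA word GAGAGA was in 32.1% of thresholded members (interval 25 to 40.3), against 19.4% of remaining members, a difference of 12.7 points (interval 5.46 to 20.9), with 16.3% in all pooled regions. It was in 42.5% of thresholded regions away from promoters and small RNA genes, so members were not the kind that held it most. The SP1-type word GGGCGG was in 15%, against 7.93%, and the CpG-rich word GCGCGC, added after the data were seen, in 20%, against 4.70% (difference 15.3 points, interval 9.48 to 22.7). Both were more frequent still in thresholded regions at divergent promoters, at 30.3% each. For GGGCGG the members were lower than the divergent promoters by 15.3 points (difference -15.3, interval -28.2 to -3.39), and for GCGCGC the interval of the difference included 0 (-23.5 to 1.93).

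Within classes of GC these words did not keep one direction either. GAGAGA was in 48.5% of thresholded members between 45 and 50% GC, against 31.7% of remaining members, and above 50% in 52.3%, against 34.3%. It was lower in thresholded members in the 3 classes below, at 0%, against 9.70%, up to 35% GC, at 12%, against 14.2%, between 35 and 40%, and at 11.1%, against 24.7%, between 40 and 45%. GGGCGG was higher between 35 and 40% GC (24%, against 4.59%) and between 40 and 45% (25.9%, against 8.84%). It was lower between 45 and 50% (9.09%, against 13.2%), above 50% (11.4%, against 23.3%) and up to 35% (0%, against 2.66%).

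Some words with many A or T bases were rarer in thresholded members. The splice acceptor word TTTCAG was in 15%, against 29.7% of remaining members (difference -14.7 points, interval -19.9 to -7.73). TATAAA was in 10.7%, against 17.8%, and a run of 8 T in 12.9%, against 20.4%. The interval of the difference stayed below 0 in all 8 alternatives for TTTCAG, but included 0 in 6 of 8 for TATAAA (-7.63 to 4.26 points without replicate 2) and in 4 of 8 for the T run. The words TGATAA of GATA factors, TAATTA of homeodomain factors, GTAAACA of forkhead factors and the E-box CACGTG had differences whose intervals included 0. For TGATAA the interval lay below 0 in 3 of 8 alternatives, at q below 0.05 (-8.55 to -1.01 points), within 50 bp of the summit (-7.86 to -3.54) and without replicate 1 (-10.8 to -0.96). The lower shares of the splice acceptor word, TATA word and T run were mostly shared by other thresholded regions. The splice acceptor word was in 15% away from promoters and small RNA genes, 11.8% near small RNA genes and 24.2% at divergent promoters. In the same order the TATA word was in 10.8%, 19.5% and 9.09%, and the T run in 7.5%, 12.3% and 15.2%. Members differed beyond counting error only in the TATA word near small RNA genes (interval -16.2 to -0.83 points). The 3 T-box words are nested, copies of different words can overlap, each word was searched on both strands, and a match is a description of letters and not of a site in use.

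**Figure D5:**
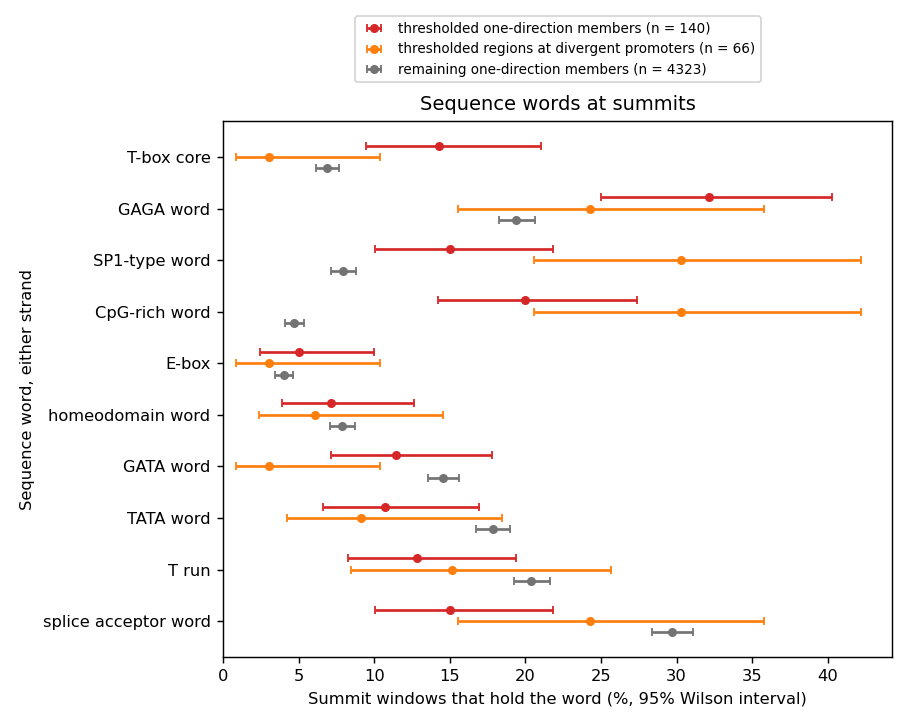
Share of summit windows (100 bp on either side) holding each of 10 sequence words on either strand (%, horizontal axis, bars are 95% Wilson intervals) in thresholded one-direction members, thresholded regions at divergent promoters and remaining one-direction members. The T-box core is in 14.3%, 3.03% and 6.87% of them, and the splice acceptor word in 15%, 24.2% and 29.7%.

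Thresholded members were unevenly spread over the chromosomes. The X chromosome held 38 of 140 (27.1%, Wilson interval 20.5 to 35), against 16.3% of all members. On X 5.21% of members were thresholded (interval 3.82 to 7.07), on chromosome III 3.82%, on II 2.84%, on V 2.46%, on IV 2.42% and on I 2.03% (interval 1.26 to 3.28). Of all pooled regions on X 4.73% were thresholded, also the highest share, and of those on V 2.25%, the lowest. In the upper 50% of the thresholded list by signal 17.5% of members were on X and 31.6% on III. Chromosome III also held more than X with a window of 500 bp upstream (23.9% on III, 19.7% on X) and without replicate 1 (28.2% on III, 21.8% on X), so which chromosome led depended on these choices. Chromosome V, where many chemoreceptor genes lie, had the fewest members for its genes, 138 per 1000, and chromosome III the most, 297 per 1000.

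The genes were next grouped by role in 23 lists. Of all 19973 protein-coding genes 0.666 percent had a thresholded member at their nearest start. The 23 lists together held 2604 genes, of which 21 had one (7 in the upper 50% of the list by signal), and 11 lists had at least 1 such gene. The counts per list are small and carry no test.

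The lists of protein synthesis and folding held the highest counts of such genes. Of 81 ribosomal protein genes 4 had a thresholded member (4.94%, interval 1.94 to 12), at rpl-3 and rpl-35 as above and at rps-28 and rps-24 with pooled signals of 94.4 and 88.4. In rps-24 the replicates differed, with 29.6 at rank 2184 in replicate 1 and 56.5 at rank 164 in replicate 2, and recurring words of 36 bases covered 38.6% of its window. Of 59 heat shock and chaperonin genes 3 had one (5.08%), hsp-1, hsp-3, the chaperone BiP of the endoplasmic reticulum, with 99.1, and dnj-7, a DnaJ protein, with 85.1. Of 68 genes of translation factors and tRNA synthetases 3 had one (4.41%), at eif-3.C, a subunit of initiation factor 3, with 84.1, at the elongation factor gene eef-1A.2 with 77.0 and at ife-2, a cap-binding protein gene, with 76.1.

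Genes of growth and chromatin had a few. Of 80 histone genes 2 had a thresholded member, his-31 with 127 and his-37 with 108. The his-31 summit lay 532 bp upstream of its start, in a coding exon of a neighbouring gene. A start on the opposite strand was nearer, at 210 bp, so the signal there cannot be given to his-31 alone. Of 56 cell cycle and replication genes 2 had one, cdc-48.1, which encodes the segregase p97, with 129, and pcn-1, which encodes the sliding clamp PCNA, with 88.8. Of 96 genes of the mitochondrial ribosome and respiration, cox-5B had one. Histone genes and other multigene families share sequence, so the reads there may belong to more than 1 copy.

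Among developmental regulators and tissue genes the lists differed. Of 16 Hox and posterior patterning genes 10 had a member (62.5%) and 2 a thresholded one (12.5%, interval 3.50 to 36). This was the highest share of the 23 lists, on the smallest list. The genes were tlp-1 with 82.1 and ceh-20, the worm Pbx homologue, with 76.4. The count of 2 fell to 1 with a window of 500 bp upstream and without replicate 1. It fell to 0 in the higher part of the list by signal and without replicate 2. It stayed at 2 with 500 bp from small RNA genes, with the outermost start of each gene and at q below 0.05. In replicates 1 and 2, tlp-1 ranked 789 and 378, and ceh-20 ranked 1640 and 546, outside the 521 highest of both. Of 63 homeobox genes 2 had a thresholded member (3.17%), ceh-20 and ceh-39, a ONECUT gene that acts in counting X chromosomes, with 78.8. The homeobox count changed in the same way as the Hox count in each of these alternatives. Of 269 nuclear receptor genes 45 had a member (16.7%, below the 18.4% of all genes) and nhr-1 had a thresholded one, with 90.6. Of 38 epidermis regulators and junction genes 25 had a member (65.8%) and 1 a thresholded one, spc-1, which encodes alpha-spectrin, with 84.3 in the pooled list, 41.5 in replicate 1 and no region within 100 bp in replicate 2. Of 41 neuron genes 18 had a member and syd-2, which encodes a liprin of the synapse, a thresholded one with 78.2.

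No gene had a thresholded member in the lists of T-box (0 of 21), collagen (0 of 172), body wall muscle (0 of 35), pharynx (0 of 20), intestine (0 of 29), germ line (0 of 35), Wnt pathway (0 of 28), Notch pathway (0 of 24), proteasome (0 of 33), vacuolar ATPase (0 of 20), cytoskeleton (0 of 28) and chemoreceptor genes (0 of 1309). Some of these counts rose in the alternatives described below. There was 1 chemoreceptor gene with a window of 500 bp upstream, and 1 Notch pathway gene at q below 0.05 and without replicate 2. There were 2 cytoskeleton genes at q below 0.05, and the rest of these lists stayed at 0. The background share would give fewer than 1 gene in most lists of this size, and a count of 0 allows up to 8.57% of the body wall muscle genes and up to 0.229% of the chemoreceptor genes. Of the body wall muscle genes 22 of 35 (62.9%) had a member of any grade, against 18.4% of all protein-coding genes and 5.73% of the chemoreceptor genes. The share was also above that of all genes for pharynx (50%), Wnt pathway (42.9%), cytoskeleton (39.3%), vacuolar ATPase (30%) and Notch pathway (25%) genes. It was close to it for germ line (20%) and T-box (19.0%) genes, and below it for collagen (16.3%), proteasome (15.2%) and intestine (10.3%) genes. The number of annotated starts per gene and the length of DNA in their windows were not equalised between lists. The highest members of the muscle genes had a median signal of 34.2, against 35.7 for all genes with a member. The lists hold background on purpose, so a member of any grade need not be a bound site. Embryos are a mixture of tissues, so a site used in few cells and one used weakly in many cannot be told apart.

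The genes of the transgene were checked as well. No pooled region lay within 1000 bp of tbx-8 or tbx-9. The nearest had its summit 23891 bp from a tbx-8 start and 18400 bp from a tbx-9 start, with a signal of 27.8 at rank 15818. At unc-119, the rescue marker, 1 member lay in its own intron, 865 bp upstream of one start and 277 bp downstream of another, with a pooled signal of 35.5 at rank 7464, 17.8 in replicate 2 and no region within 100 bp in replicate 1.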

How the data were processed

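ChIP-seq regions of 2 biological replicates were analysed from lists the authors deposited. Per the file headers and labels these are a list of peaks and background for each replicate (24167 regions in replicate 1 and 20865 in replicate 2), one for the pooled reads and one thresholded for reproducibility, all on ce11. Each region carries the authors' signal value and −log10 q-value, both used as deposited. The software for alignment and calling is not stated there, control reads were not used here, and the lists give no read counts, so the depth is unknown.

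Summits were placed against 29314 starts of protein-coding transcripts (Ensembl release 115, WBcel235) with Python 3.11.15 and pandas 2.3.3. Each member was given to the nearest start whose window holds it (100 members had starts of several genes in reach), and 727 members overlapped another. Regions were matched between lists by summits within 100 bp. Words were searched within 100 bp of summits. Shares have Wilson and differences Newcombe intervals at 95%, and a count of 0 allows up to 3 counts. The classification was tested on simulated data. Genes named are those of the 25 highest members, up to 4 per list, tbx-8, tbx-9 and unc-119, apart from those said to be chosen later. The members, words and gene lists were chosen with earlier results of these data known.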

Additional observations from a re-analysis of the deposited data

How the results depend on the processing

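The results were recomputed with a promoter window of 500 bp upstream, with 500 bp from small RNA genes, with the outermost start of each gene, with the upper 50% of the thresholded list by signal (the higher part), at q below 0.05, with other matching rules and windows, and on each replicate list alone. The share of members in the thresholded list was 1.28% with the higher part of the list, 5.71% at q below 0.05 and between 2.30% and 2.53% on a single replicate. The share of all regions changes with these choices too. Members minus other regions was -0.43 points with the higher part (interval -0.81 to 0.003) and 0.44 at q below 0.05 (interval -0.33 to 1.26). It was 0.05 points without replicate 1 (interval -0.41 to 0.55) and 0.20 without replicate 2 (interval -0.21 to 0.64). The difference from other regions became 1.50 points with small RNA regions left out of those, an alternative added after the data were seen. The median log2 signal of members minus other regions, 0.03, was 0.049 with the 500-bp window and 0.047 without small RNA regions. With the 500-bp window 72.4% of members were upstream, the median distance of thresholded members was -198 bp, their GC excess was 5.47 points in place of 7.21, and the share on X was 19.7%. The GC excess was 10.9 points in windows of 50 bp on either side, and the share on X was 17.5% in the higher part of the list, close to that of all members. The share of thresholded members high in both replicates was 89.5% in the higher part, 26.7% at q below 0.05, 39.3% with summits within 50 bp and 77.9% with double the number of highest regions. List genes with a thresholded member numbered 7 in the higher part and 32 at q below 0.05, in place of 21.

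The excess of the T-box core in thresholded over remaining members stayed above 0 in 8 of 8 alternatives (4.93 to 7.25 points), with intervals above 0 in each, as did that of GGGCGG (5.49 to 11). GAGAGA stayed above 0 as a value (6.34 to 17.2), with an interval that included 0 in the higher part of the list (-0.21 to 23.0). The splice acceptor word, the TATA word and the T run stayed below 0 as values, with intervals that included 0 in 0, 6 and 4 of the 8. The GATA word, at -3.12 points, ran between -6.92 and -2.20, with 3 intervals below 0. The core plus A was at -1.72 points in the higher part of the list and above 0 in the other 7, with 2 intervals above 0. Without replicate 2, 89.1% of thresholded members were upstream, in place of 96.4%. Chromosome III held more of them than X in 3 alternatives. No paired analysis was possible because the 2 replicates form 1 group. Depth is unknown, so no limit on undetected sites can be given, and with 2 replicates no spread between embryo cultures can be estimated.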

Other observations

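A number of members were high in a single replicate and did not reach the thresholded list. Of the remaining members, 42 were among the 521 highest regions of replicate 1, and 19 of those had no summit within 100 bp in replicate 2. In replicate 2 there were 39, of which 18 had none in replicate 1. No remaining member was among the highest of both. In replicate 1 the member at sar-1, which encodes a small GTPase of the secretory pathway, had a signal of 63.0 at rank 196 and the one at grk-1, which encodes a kinase of G-protein-coupled receptors, 57.5 at rank 249, with neither found in replicate 2. In replicate 2 the member at hmg-1.1, which encodes a high mobility group protein, had 50.3 at rank 233, against 16.8 at rank 16315 in replicate 1. These genes were chosen after their values were seen.

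The B box word GGTTCGA, a promoter element inside tRNA genes that was added after the data were seen, was in 6 thresholded members (4.29%, interval 1.98 to 9.03), against 1.48% of remaining members (difference 2.81 points, interval 0.46 to 7.56). It was in 2.69% of all pooled regions and 47.7% of thresholded regions near small RNA genes. Of thresholded regions away from promoters and small RNA genes 5% held it (members' difference -0.71 points, interval -6.66 to 4.74), so the word was not particular to members. The 6 members were sms-3, lias-1, nduf-9, F59C12.4, C18B12.4 and ceh-39, with pooled signals between 78.8 and 118.5. At nduf-9 and F59C12.4 the T-box core lies beside this word. The nduf-9 summit also lay within 200 bp of a microRNA gene. The rule for members places all of them more than 200 bp from an annotated tRNA gene.

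Besides ftt-2 and W01D2.3, 5 genes held a pair of thresholded members. In all of these 7 genes except egl-30 the regions of the pair overlap, which accounts for the 12 thresholded members that overlap another. They were Y54G11A.2 with pooled signals of 134 and 109, spat-3, a RING protein gene of the Polycomb group, with 129 and 95.7, egl-30 with 121 and 107, mdl-1, which encodes a bHLH protein related to MAD, with 116 and 78.8, and Y43F8B.2 with 86.4 and 77.0. In the windows of spat-3, bases that recur elsewhere among the members made up 27.1% and 25.3%.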
